A study of Mus musculus with 15 samples.

Results

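The fibroblast extracellular matrix genes are 34 genes taken by symbol, and each of the 34 was found among the 18279 genes of the table. They comprised 6 fibrillar collagens, 7 other collagens, 6 glycoproteins and matricellular proteins, 4 small leucine-rich proteoglycans, 5 elastic fibre proteins, 3 cross-linking enzymes and 3 proteins of activated fibroblasts. Their transcripts were measured by bulk RNA sequencing in 15 subcutaneous tumors of Renca cells, a murine renal cell carcinoma line of BALB/c origin, grown in female BALB/c mice that were 4 to 6 weeks old when bought. The groups were 5 control tumors (tumors 1 to 5), 5 tumors of *Pbrm1* knockout clone 4 (tumors 6 to 10) and 5 tumors of *Pbrm1* knockout clone 18 (tumors 11 to 15), so each knockout group stands for 1 clone. The labels call the control cells parental Renca, whereas the series design and the study describe them as control knockout cells. All cells were injected in Matrigel, and mice were killed when a tumor reached 1000 mm3, ulcerated or caused distress. The protocol covers untreated mice and mice given PD-1 antibody, and does not say which these were.

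The extracellular matrix is the protein scaffold around cells. Fibrillar collagens form its cables, fibronectin and the matricellular proteins link it to cells, small leucine-rich proteoglycans bind along collagen fibrils, elastic fibres are built on fibrillin, and lysyl oxidases cross-link collagen and elastin. In tumors much of this matrix is made by fibroblasts, which on activation form smooth muscle actin, although carcinoma cells, pericytes and smooth muscle can transcribe several of the same genes. *Pbrm1* encodes a subunit of the PBAF chromatin remodeling complex.

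In the 13 tumors whose whole reads could be recovered, 32924414 to 49099168 reads lay on genes, and values are given below as normalized counts. The *Pbrm1* level was 7451.5 to 9870.6 in control tumors and 2483.8 to 3137.5 in knockout tumors, with no overlap (*Gnl3* and *Smim4* overlap it on the other strand). Of 16 fibroblast markers, 15 were in the table and all 15 had a mean of at least 10, and their summed level overlapped between the groups (17486.6 to 24468.0 in control, 15675.2 to 27960.4 in clone 4 and 18180.7 to 26288.6 in clone 18). In bulk tumors, fewer cells of a type and less RNA per cell cannot be told apart, nor can host transcripts and those of Renca cells. Skeletal muscle markers, which can come from tissue next to a tumor, summed to 175.5 to 484.0 in control tumors. They summed to over 1000 in tumors 9, 10, 11, 14 and 15, with a maximum of 4359.9 in tumor 10, and their source was not tested.

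The 250 bases before a RefSeq start are shown for 4 members. These are *Fbln1*, the member that passed as lower in both clones, *Ogn*, the member with the lowest difference in clone 4, and *Col1a2* and *Col3a1*, which are abundant collagens. The windows were read on GRCm38.p6, plus strand. Those of *Fbln1* and *Col1a2* lie partly or wholly inside the gene as GENCODE places it, and for *Fbln1* the start with a match is shown. Capitals mark matches on either strand to a CCAAT box (CCAAT), a GC box (GGGCGG) or a TATA box (TATAAA).
Fbln1 (chr15:85205758-85206007): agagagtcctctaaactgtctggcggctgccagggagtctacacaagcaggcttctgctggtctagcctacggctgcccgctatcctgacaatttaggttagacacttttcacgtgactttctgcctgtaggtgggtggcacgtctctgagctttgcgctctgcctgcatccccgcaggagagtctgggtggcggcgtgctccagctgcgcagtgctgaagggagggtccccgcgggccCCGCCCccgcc
Ogn (chr13:49607765-49608014): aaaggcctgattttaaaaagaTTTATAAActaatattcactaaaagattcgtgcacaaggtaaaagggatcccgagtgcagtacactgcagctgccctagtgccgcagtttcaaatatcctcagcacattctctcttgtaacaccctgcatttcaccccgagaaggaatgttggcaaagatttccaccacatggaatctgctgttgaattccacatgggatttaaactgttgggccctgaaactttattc
Col1a2 (chr6:4505368-4505617): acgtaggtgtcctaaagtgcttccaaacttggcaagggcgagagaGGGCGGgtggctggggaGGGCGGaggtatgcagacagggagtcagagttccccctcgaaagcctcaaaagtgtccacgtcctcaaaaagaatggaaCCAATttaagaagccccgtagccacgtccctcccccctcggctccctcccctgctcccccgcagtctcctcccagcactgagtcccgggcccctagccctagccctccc
Col3a1 (chr1:45311288-45311537): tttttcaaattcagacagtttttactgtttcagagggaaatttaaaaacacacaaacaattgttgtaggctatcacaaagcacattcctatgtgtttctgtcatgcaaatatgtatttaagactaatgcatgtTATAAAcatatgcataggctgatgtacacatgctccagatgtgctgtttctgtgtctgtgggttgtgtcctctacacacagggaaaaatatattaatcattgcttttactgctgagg

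Counting back from the start, *Fbln1* held 1 GC box at -11 on the minus strand in this window, and none of the motifs in the window of its other annotated start (chr15:85205699-85205948). *Col1a2* held a CCAAT box at -109 and GC boxes at -205 and -188. *Col3a1* held a TATA box at -117, and *Ogn* overlapping TATA boxes at -227 and, on the minus strand, at -229. Of the 34 members, 19 were matched to a promoter. Among these a GC box was found in 10, a CCAAT box in 3 and a TATA box in 5, against 35.4%, 37.5% and 14.3% of the 27025 genes with a promoter. A match is a match of letters and not a known site. The 15 members not matched were *Col1a1*, *Col5a2*, *Col12a1*, *Col14a1*, *Fn1*, *Dcn*, *Lum*, *Thbs1*, *Lox*, *Loxl1*, *Loxl2*, *Mfap5*, *Eln*, *Tagln* and *Fap*.

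Levels of different genes were compared per kb of exon, as means over the 15 tumors. *Sparc*, which encodes a collagen-binding matricellular protein, stood highest at 6396 normalized counts per kb, followed by *Thbs1* (thrombospondin 1) at 4083, *Col3a1* (the chain of type III collagen) at 3192, *Fbln1* at 2719 and *Col1a1* (a chain of type I collagen) at 2565. The lowest members were *Fap* at 39.9, *Ogn* at 35.0 and *Eln*, the elastin gene, at 32.7 per kb. Of the 34 members, 18 overlap another annotated gene on either strand, among them *Col1a2*, *Col3a1*, *Thbs1*, *Eln*, *Lox* and *Ogn*, and reads of such pairs may have been split or lost in the counting.

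The first question was whether the matrix genes differed between all 10 knockout tumors and the 5 control tumors, which was tested with limma on log2(normalized count + 1). Of the 34 members, 1 passed an adjusted p of 0.05, *Fbln1*, which was lower in the knockout tumors. Over all genes tested, 22.1% passed in the same comparison. An unadjusted p under 0.05 was found for 2 members, *Fbln1* and *Ogn*, and edgeR and DESeq2 on the recovered reads of 13 tumors called *Fbln1* alone. The median log2 difference was 0.08 over the members and -0.02 over all genes, and 21 members stood above 0 and 13 below. Without tumor 10 the members' median was -0.02 with 14 above 0, and without tumor 6 it was 0.22 with 25 above 0. The standard error of a member was wider than that of a typical gene, with a median of 0.29 against 0.13. Of the 33 members that did not pass, 26 had a 95% confidence interval inside 1 log2 unit on either side of 0, so for these the data leave room for changes of less than a doubling, and for the other 7 larger ones.

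*Fbln1* encodes fibulin-1, a secreted glycoprotein of elastic fibres and basement membranes (ENSMUSG00000006369, chr15:85205949-85286535, plus strand, GENCODE positions on GRCm38, no overlapping gene). Its normalized counts were 16039.5, 20592.8, 14448.5, 16759.7 and 15671.6 in control tumors 1 to 5. They were 8472.5, 8550.5, 10932.6, 7067.9 and 9118.9 in clone 4 tumors 6 to 10. In clone 18 tumors 11 to 15 they were 9879.5, 10467.0, 9692.9, 9272.8 and 11152.6. All 10 knockout tumors lay below all 5 control tumors, and the ranges of the clones overlapped each other. The means were 16702 ± 2330.3 (SD, n = 5) in control, 8828 ± 1398 in clone 4 and 10093 ± 732 in clone 18, and the control mean was 1.77 times the knockout mean. The log2 difference was -0.82 (SE 0.10, 95% interval -1.03 to -0.61) with a limma adjusted p of 1.64e-05. *Fbln1* was the member with no overlap between knockout and control tumors, where 7.98% of all genes tested had none. Of the lists of other cell types, the summed macrophage markers also separated the groups, by a narrow margin from clone 4. Their sum was 80202.9 to 107630 in control, 64055.2 to 79796.7 in clone 4 and 57539.5 to 77218.3 in clone 18. Of the 8 markers, 5 passed as lower with limma, where 22.1% of all genes passed. edgeR and DESeq2 called 4 and 6 of the markers, and 3457 and 4031 of 18249 genes. *Cd68* went the other way, at 0.12 in knockout tumors without passing, and passed as higher in clone 18 (0.38, limma). The part of macrophages in the *Fbln1* result was not tested.

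**Figure D1:**
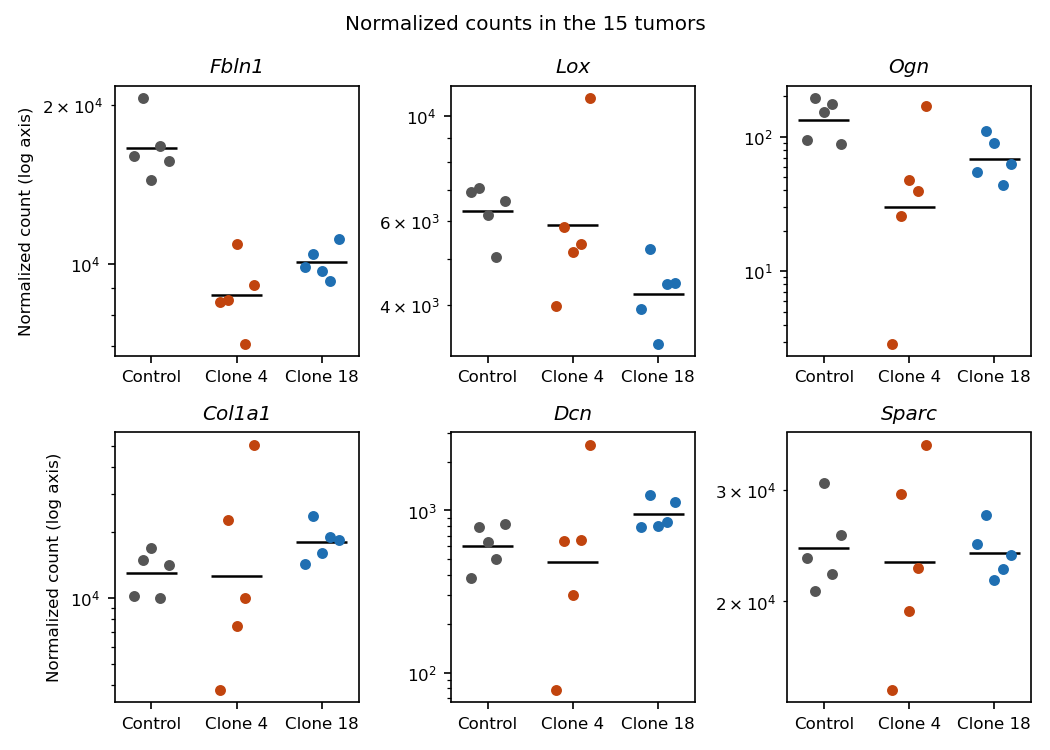
Normalized counts (log axis) of 6 members in control, clone 4 and clone 18 tumors, with 1 point per tumor, 5 per group, and a bar at the geometric mean. The 10 knockout tumors sit at 7067.9 to 11152.6 for *Fbln1*, below the lowest control tumor at 14448.5, whereas the clone 4 points of *Col1a1* and *Dcn* reach below and above both other groups, and those of *Ogn* run from 2.9 to 168.2.

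The fibrillar collagens did not pass the test in knockout against control. Their log2 differences ran from -0.14 for *Col5a1* to 0.32 for *Col5a3*, and adjusted p-values from 0.426 to 0.863. *Col3a1* was 19163.6, 24396.8, 33379.6, 23412.3 and 31212.1 in control tumors 1 to 5, and 6925.8, 37074.5, 15840.3, 27416.2 and 73677.2 in clone 4 tumors 6 to 10. In clone 18 tumors 11 to 15 it was 32017.2, 56130.6, 21764.2, 31511.1 and 36055.2. Clone 4 held both its lowest and its highest value. The log2 difference of *Col3a1* was 0.15 (SE 0.38, 95% interval -0.66 to 0.96).

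*Col1a1* (chr11:94936224-94953042) was chosen for its range after its values were seen. In control tumors 1 to 5 it was 10235.7, 15015.9, 16970.8, 10002.9 and 14212.5. In clone 4 tumors 6 to 10 it was 3786.9, 22840.2, 7462.1, 10008.0 and 50416.7, and in clone 18 tumors 11 to 15 it was 14308.4, 23717.1, 16100.3, 18995.7 and 18445.2. The control and clone 18 tumors overlapped, and clone 4 went beyond both of them on either side. Its log2 difference in knockout against control was 0.22 (SE 0.41, adjusted p = 0.762, limma).

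Among the other collagens, which include the microfibril chains of type VI and the fibril-associated types XII and XIV, the differences ran from -0.55 for *Col14a1* (SE 0.32, 95% interval -1.21 to 0.12) to 0.31 for *Col6a3* (SE 0.23, 95% interval -0.16 to 0.79), and the lowest adjusted p was 0.246. The mean of *Col14a1* was 1382 ± 383 (SD, n = 5) in control, 1096 ± 739 in clone 4 and 971.0 ± 254 in clone 18. *Col12a1*, the most abundant of them per kb, was 23572 ± 3005, 26141 ± 12211 and 25191 ± 4256 in the same order. These groups overlapped.

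*Sparc* was 23428.5, 20779.5, 30743.3, 22095.6 and 25452.9 in control tumors 1 to 5, and 14505.3, 29501.6, 19347.6, 22540.7 and 35278.0 in clone 4 tumors 6 to 10. In clone 18 tumors 11 to 15 it was 24653.2, 27367.7, 21582.2, 22485.9 and 23665.5. The group means lay at 24500.0, 24235 and 23951, and the 95% interval of the knockout difference, -0.37 to 0.27, was the narrowest among the members that did not pass. *Thbs1* was 31069.3, 29326.3, 23197.7, 27364.3 and 23774.9 in control, 18133.1, 36499.3, 26218.9, 19071.6 and 35136.5 in clone 4, and 20233.4, 18726.6, 14970.6, 25019.9 and 23195.3 in clone 18. Of its clone 18 values, 4 lay below the lowest control value of 23197.7, the nearest at 23195.3. The value of 25019.9 alone lay inside the control range. The differences of *Thbs1* from control were -0.05 in clone 4 and -0.41 in clone 18 (95% interval -0.80 to -0.02, limma adjusted p = 0.116). The remaining glycoproteins, fibronectin (*Fn1*), periostin (*Postn*), thrombospondin 2 (*Thbs2*) and tenascin C (*Tnc*), differed from control by -0.17 to 0.19 on the log2 scale over the 10 knockout tumors.

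Of the proteoglycans, decorin (*Dcn*), lumican (*Lum*) and biglycan (*Bgn*) differed from control by 0.16, -0.18 and 0.20 on the log2 scale, with standard errors of 0.54, 0.56 and 0.31. *Dcn* was chosen for its range after its values were seen. It was 385.3, 794.4, 640.8, 499.8 and 820.5 in control tumors 1 to 5, and 788.8, 1251.3, 798.5, 851.0 and 1124.0 in clone 18 tumors 11 to 15. In clone 4 tumors 6 to 10 it was 78.1, 650.7, 303.4, 653.1 and 2540.9. The clone 18 tumors lay at the upper end of the control range or above it, and clone 4 ran from far below to far above them. Among the elastic fibre genes other than *Fbln1*, *Fbn1* (fibrillin 1), *Fbln2* and *Mfap5* differed from control by 0.02, 0.03 and -0.12. *Eln* ranged 13.7-fold within the control tumors, where it was 831.4 in tumor 2 and 60.5 in tumor 4, and 871.8 in tumor 13 was the highest value of all.

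The 3 genes of activated fibroblasts, which per kb of exon stood at 977 (*Acta2*), 565 (*Tagln*) and 39.9 (*Fap*) normalized counts over all tumors, did not pass either. Smooth muscle actin (*Acta2*) had mean normalized counts of 1812 ± 735 (SD, n = 5) in control, 2082 ± 1683 in clone 4 and 2539 ± 877 in clone 18. *Tagln*, which encodes the actin-binding protein transgelin, had 911 ± 419.6, 1037 ± 860.3 and 1421 ± 397. *Fap*, the gene of a fibroblast surface protease, had 254 ± 85.1, 236 ± 53.8 and 188 ± 57.7. Their adjusted p-values in knockout against control ran from 0.463 to 0.651.

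**Figure D2:**
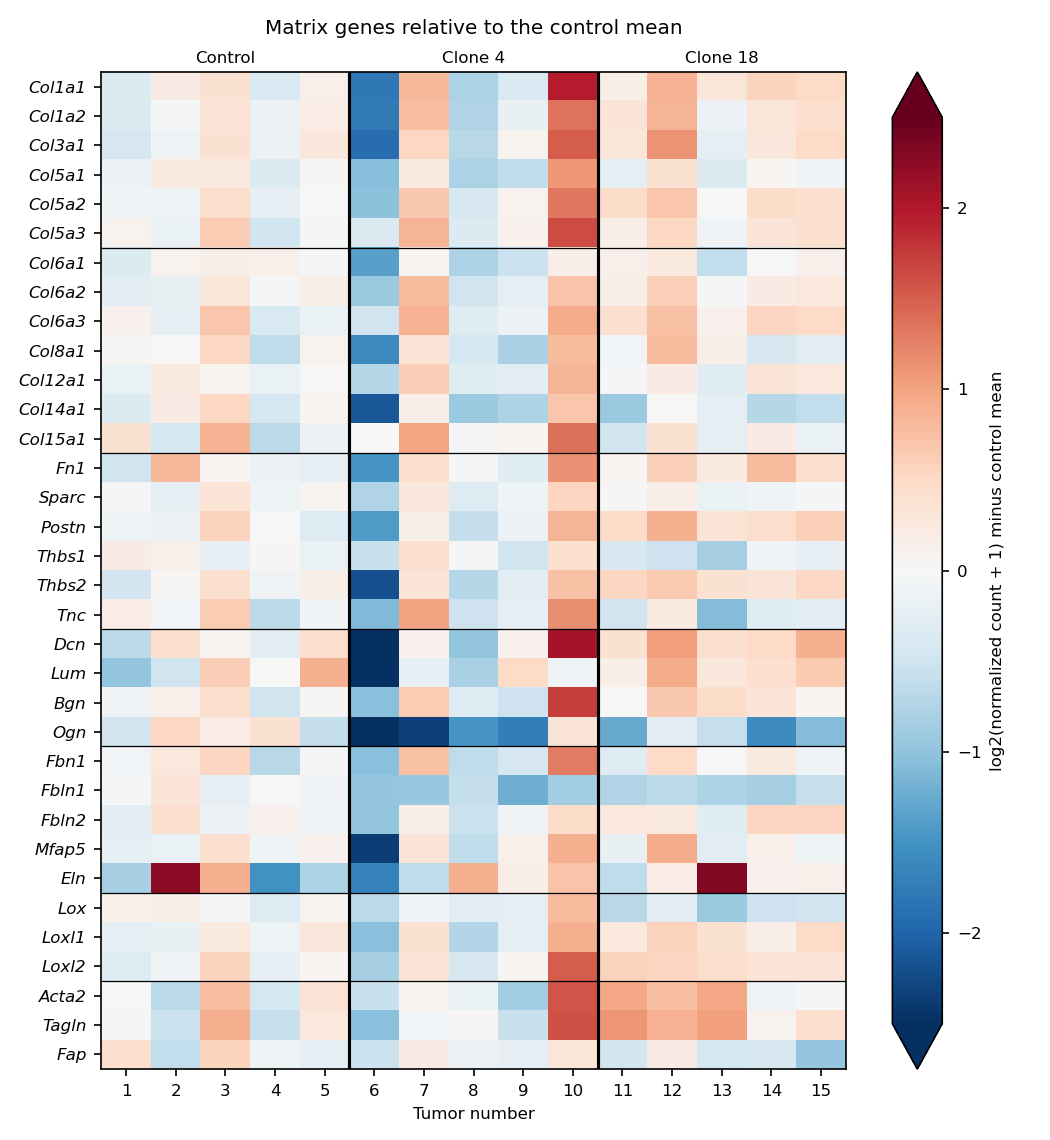
Log2(normalized count + 1) of the 34 members (rows, grouped by role) in tumors 1 to 15 (columns) minus the mean of the 5 control tumors, with blue below and red above that mean and colours capped at 2.5. Tumor 6 is below the control mean for 33 of 34 members, tumor 10 is above it for 32, and the row of *Fbln1* is blue in all 10 knockout tumors.

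Most of the spread of the matrix genes lay within clone 4. The median standard deviation of the members over the 5 tumors of a group was 0.93 on the log2 scale in clone 4, against 0.34 in control and 0.30 in clone 18. Over the 16494 genes whose mean reached 10 it was 0.18, 0.17 and 0.19, so the wide spread in clone 4 did not extend to the typical gene. The highest tumor exceeded the lowest over 5-fold for 18 members in clone 4, and for 1 member, *Eln*, in each of the other groups. For 31 members the range was wider in clone 4 than in control, the exceptions being *Col15a1*, *Eln* and *Fap*. These are descriptions of 5 tumors per group, and the difference in spread was not tested.

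The ends of the range were tumors 6 and 10. Tumor 6 held the lowest value of all 15 tumors for 27 members, and its median log2 difference from the control mean was -1.04. Tumor 10 held the highest value for 23 members, with a median of 0.89. The medians over all genes in these tumors were -0.02 and 0.02. The ratio of tumor 10 to tumor 6 was 58.0 for *Ogn*, 32.5 for *Dcn*, 13.3 for *Col1a1*, 10.6 for *Col3a1*, 2.43 for *Sparc*, 1.94 for *Thbs1*, 1.79 for *Fap* and 1.08 for *Fbln1*. Collagens and proteoglycans thus differed more between these tumors than *Fbln1*, and in clone 18 *Fbln1* again had the least spread of the members (log2 SD 0.10).

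Other lists moved unevenly between the same tumors. The summed level in tumor 10 was 4.14 times that in tumor 6 for the members, 1.71 times for fibroblast markers, 1.71 times for endothelial markers, 1.26 times for collagen synthesis genes, 1.18 times for other matrix glycoproteins, 1.10 times for smooth muscle markers and 1.05 times for other collagens. It was 5.52 times for T cell markers, 3.37 times for neutrophil markers and 46.5 times for skeletal muscle markers, and 0.95 times for macrophage and 0.69 times for adipocyte markers. The part of muscle or of other cells in the matrix values was not tested. In clone 4 tumors 6 to 10 the skeletal muscle markers summed to 93.7, 137.8, 100.6, 1494 and 4359.9. In the same tumors 1, 28, 2, 9 and 32 members stood above the control mean. In clone 18 tumors 11 to 15 the sums were 2999.2, 171, 184.5, 2938.7 and 3108.8. There 19, 29, 14, 24 and 20 members stood above the control mean.

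**Figure D3:**
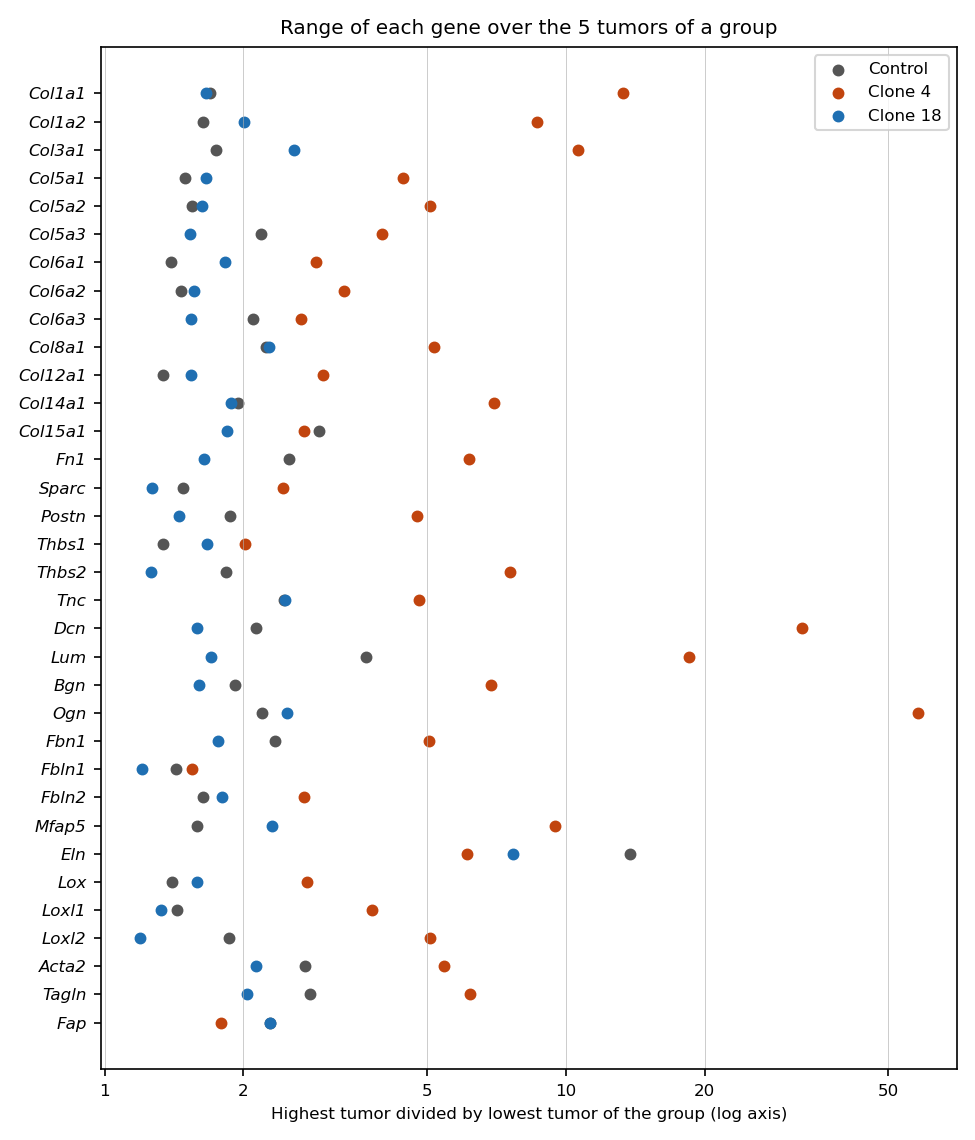
Highest tumor divided by lowest tumor (log axis) for each of the 34 members in the control, clone 4 and clone 18 groups, 5 tumors each. The median ratio is 1.87 in control, 5.07 in clone 4 and 1.67 in clone 18, and *Ogn* and *Dcn* reach 58.0 and 32.5 in clone 4.

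Each clone was next compared with the control. The comparisons share the 5 control tumors. In clone 4, 2 of 34 members passed, *Fbln1* and *Ogn*, both lower, against 16.8% of all genes. The median of the members was -0.09, with 9 above 0 and 25 below. Leaving out tumor 6 turned this median to 0.19 with 26 members above 0 and left *Fbln1* alone as called, and leaving out tumor 10 gave -0.37 with 2 above 0 and added *Col6a1* to the genes that passed. By arithmetic means, 19 members stood higher in clone 4 than in control, so the side on which most members lie depended on the scale and on 1 tumor.

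In clone 18, 2 of 34 members passed, *Fbln1* and *Lox*, both lower, against 24.7% of all genes. The median was 0.26, with 23 members above 0 and 11 below, and the largest positive difference was 0.70 for *Tagln* (SE 0.38, 95% interval -0.11 to 1.51). For *Fbln1* the differences from control were -0.92 (SE 0.10, adjusted p = 1.1e-05, limma) in clone 4 and -0.72 (SE 0.10, adjusted p = 0.000115, limma) in clone 18.

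*Ogn* encodes osteoglycin, a small leucine-rich proteoglycan (chr13:49608046-49624501). It was 95.2, 192.9, 152.1, 173.7 and 87.8 in control tumors 1 to 5, 2.9, 25.8, 47.7, 39.8 and 168.2 in clone 4 tumors 6 to 10, and 55.1, 109.5, 89.0, 44.1 and 62.7 in clone 18 tumors 11 to 15. The first 4 clone 4 tumors lay below all control tumors and tumor 10 lay inside the control range. The log2 difference in clone 4 was -2.06 (SE 0.66, 95% interval -3.45 to -0.67, limma adjusted p = 0.0399). It was -1.30 without tumor 6, -2.66 without tumor 10 and -1.26 with edgeR or DESeq2 on the recovered reads of 13 tumors, where limma on these tumors gave -2.21. In clone 18 it was -0.96 (SE 0.66, adjusted p = 0.321), and over all knockout tumors -1.51 (SE 0.60, adjusted p = 0.0837, limma). The call was lost in 8 of 15 fits that each left out 1 tumor, namely any of tumors 1 to 4 or 6 to 9 (adjusted p 0.0035 to 0.0847 over the 15 fits), and with edgeR and DESeq2 on the recovered reads of 13 tumors (adjusted p = 0.22 and 0.273). *Cenpp* overlaps *Ogn* on the other strand, and the strand setting of the counting was not given in the sources used here, so reads of the pair could not be told apart.

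*Lox* encodes lysyl oxidase, the enzyme that starts the cross-linking of collagen and elastin (chr18:52516067-52529867, overlapped on the other strand by AC161119.1). It was 6916.7, 7055.7, 6171.3, 5032.3 and 6626.2 in control, 3973.0, 5831.9, 5178.3, 5368.1 and 10910.1 in clone 4, and 3918.7, 5252.6, 3310.4, 4429.4 and 4443.4 in clone 18. Of the clone 18 tumors, tumor 12 alone reached the control range. The log2 difference was -0.58 (SE 0.20, 95% interval -0.99 to -0.17, limma adjusted p = 0.0384) in clone 18 and -0.10 (SE 0.20, adjusted p = 0.787) in clone 4. The call was lost in 8 of 15 fits that each left out 1 tumor, namely tumors 1, 2, 3, 5, 11, 13, 14 or 15 (adjusted p 0.00281 to 0.0986 over the 15 fits), and under upper quartile scaling (adjusted p = 0.0547), edgeR (0.0779) and DESeq2 (0.108). The related *Loxl1* and *Loxl2* stood at 0.37 and 0.45 in clone 18 without passing. *Ogn* and *Lox* were given in every tumor after their values were seen.

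**Figure D4:**
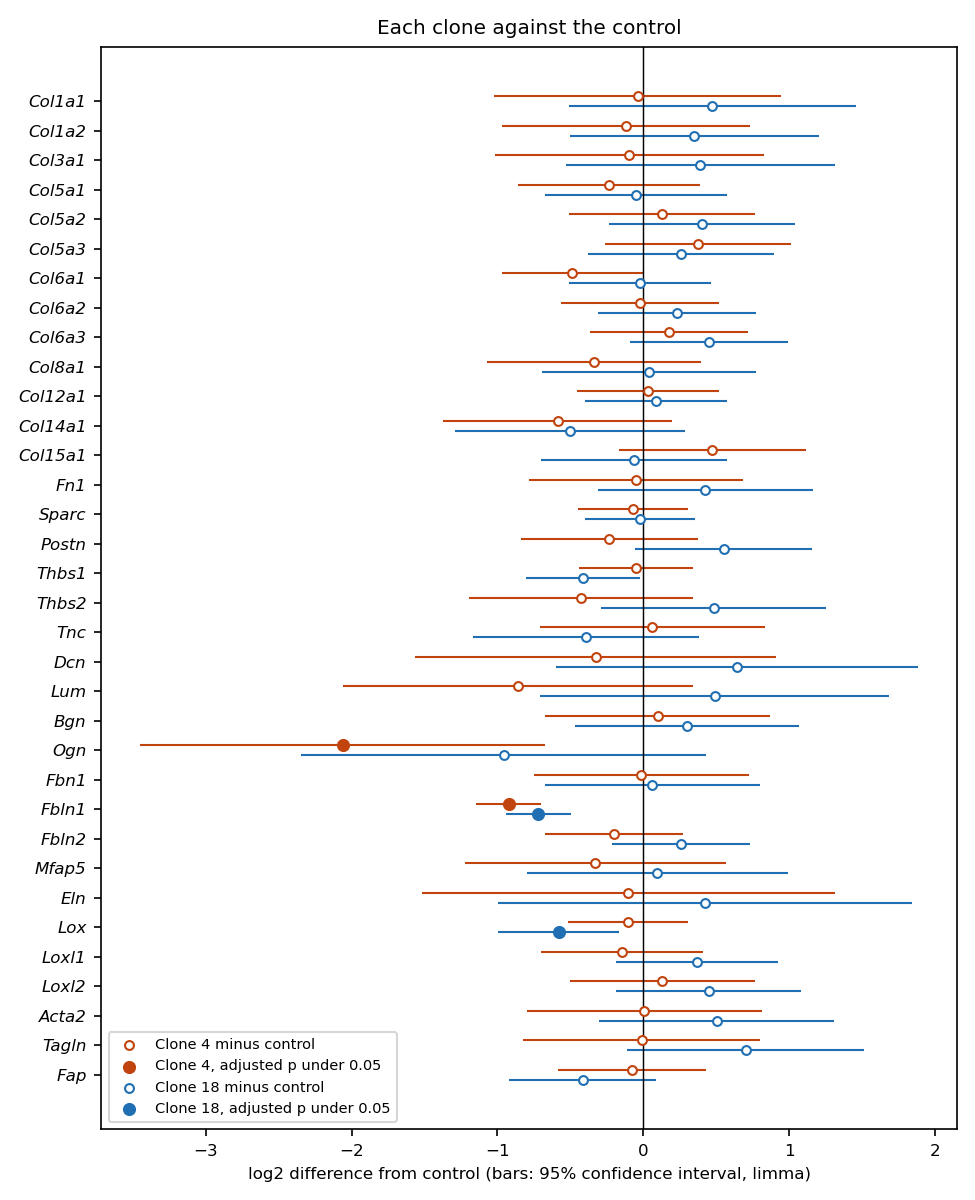
Log2 difference from control of each member in clone 4 (orange) and clone 18 (blue), 5 tumors per group, with 95% confidence intervals from limma, and filled points where the adjusted p is under 0.05. *Fbln1* is filled in both clones (-0.92 and -0.72), *Ogn* in clone 4 and *Lox* in clone 18.

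Whether the clones differed from each other was tested directly. None of the 34 members passed in clone 18 against clone 4 with limma, against 4.62% of all genes, and 4 had an unadjusted p under 0.05. With edgeR and DESeq2 on the recovered reads 0 and 0 passed. The median difference was 0.35, with 28 members above 0 and 6 below. It was 0.06 with 20 above 0 without tumor 6 and 0.62 with 29 above 0 without tumor 10, and with edgeR and DESeq2 on the recovered reads it was 0.02 with 18 above 0 and 16 below, where limma on the same 13 tumors gave 0.30 with 26 above 0. The largest were 1.35 for *Lum* (SE 0.57, 95% interval 0.15 to 2.54), 1.10 for *Ogn* (SE 0.66, interval -0.29 to 2.49), 0.97 for *Dcn*, 0.91 for *Thbs2* (SE 0.36, interval 0.14 to 1.68) and 0.78 for *Postn* (SE 0.29, interval 0.18 to 1.39). For *Fbln1* the difference was 0.20 (SE 0.10, 95% interval -0.02 to 0.43) and for *Lox* -0.48 (SE 0.20, interval -0.89 to -0.07, limma adjusted p = 0.193), so neither the *Ogn* nor the *Lox* result was shown to differ between the clones. Without tumor 10, *Postn*, *Thbs2*, *Loxl1* and *Tagln* passed as higher in clone 18 with limma, where 896 of 18244 genes passed. Without tumors 6 and 10 *Postn* alone of the members passed, where 507 of 18241 genes did.

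Other matrix genes were counted in knockout against control with the same fit. Of 21 other collagens measured, 1 passed, *Col16a1*, which encodes a fibril-associated collagen and rose by 0.46 on the log2 scale (SE 0.08, adjusted p = 0.000705, limma), from 4082.3 to 5246.6 in control to 5468.9 to 7420.5 in knockout tumors. Of 23 genes of collagen synthesis and maturation, 7 passed, 4 higher and 3 lower. The prolyl hydroxylase subunit *P4ha1* (0.38), *Loxl3* (0.34), the collagen galactosyltransferase *Colgalt1* (0.23) and the prolyl isomerase *Ppib* (0.21) rose, and the lysyl hydroxylase *Plod1* (-0.24), the prolyl hydroxylase *P3h1* (-0.32) and *Pcolce2*, an enhancer of procollagen cleavage, were lower. *Pcolce2* was 170.2 to 778.6 in control, 1.9 to 100.3 in clone 4 and 17 to 48 in clone 18, with a log2 difference of -3.79 (SE 0.60). When each clone was set against control with limma, *P3h1* passed in clone 4 alone, and *Plod1* and *Colgalt1* in clone 18 alone.

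Of 31 other matrix glycoproteins, 7 passed. Osteopontin (*Spp1*) rose by 0.70 (SE 0.09), from a mean of 65068 in control to 114537 in clone 4 and 97038 in clone 18, and *Ccn5* rose by 0.38. *Ltbp1*, which encodes a protein that tethers latent TGF-beta to the matrix, was lower by a log2 difference of -2.93 (SE 0.34), at 155.8 to 546.1 in control, 17.4 to 75.7 in clone 4 and 28 to 65.3 in clone 18. *Ccn4* (-1.70, SE 0.30), the collagen-binding proteoglycan fibromodulin (*Fmod*, -1.50, SE 0.38) and tenascin X (*Tnxb*, -0.84, SE 0.22) were lower as well, as was *Tgfbi* (-0.44), which was named after its values were seen. The shares that passed were 4.76% of the other collagens, 30.4% of the synthesis genes and 22.6% of the glycoproteins, against 22.1% of all genes. When each clone was set against control with limma, *Tnxb* passed in clone 4 alone, and *Ccn5* and *Tgfbi* in clone 18 alone.

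Of the 15 fibroblast markers, *Twist2* rose by 0.33 and the Hedgehog target *Gli1* (-0.57) and the gelatinase gene *Mmp2* (-0.85, SE 0.28) were lower. Of these *Mmp2* did not pass with edgeR or DESeq2, nor did *Plod1* above. With limma, *Twist2*, *Gli1* and *Mmp2* passed in clone 4 against control and not in clone 18, where *Pdpn* alone passed. *Twist2* did pass in clone 18 with edgeR and DESeq2 on the recovered reads. Of 11 smooth muscle markers 1 was lower, *Smtn* (-0.69). None of 6 pericyte, 10 endothelial or 12 skeletal muscle markers passed with limma (0, 1 and 4 had an unadjusted p under 0.05). With edgeR and DESeq2 on the recovered reads, 0 pericyte markers, 1 endothelial marker (*Esam*) and 5 and 7 skeletal muscle markers passed. One or more markers passed with limma in the lists of adipocytes (1 of 7), keratinocytes (1 of 3), T cells (2 of 5), neutrophils (1 of 4) and epithelium (2 of 8, *Epcam* higher and *Krt18* lower), against 22.1% of all genes. On the recovered reads edgeR and DESeq2 called 1 and 1 adipocyte, 0 and 0 keratinocyte, 2 and 2 T cell and 0 and 1 neutrophil markers. They called 3 and 3 epithelial markers, with *Krt8* added. With limma *Epcam* passed in each clone against control, and *Krt18* in clone 18 alone. The keratinocyte markers summed to at most 20 in any tumor.

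**Figure D5:**
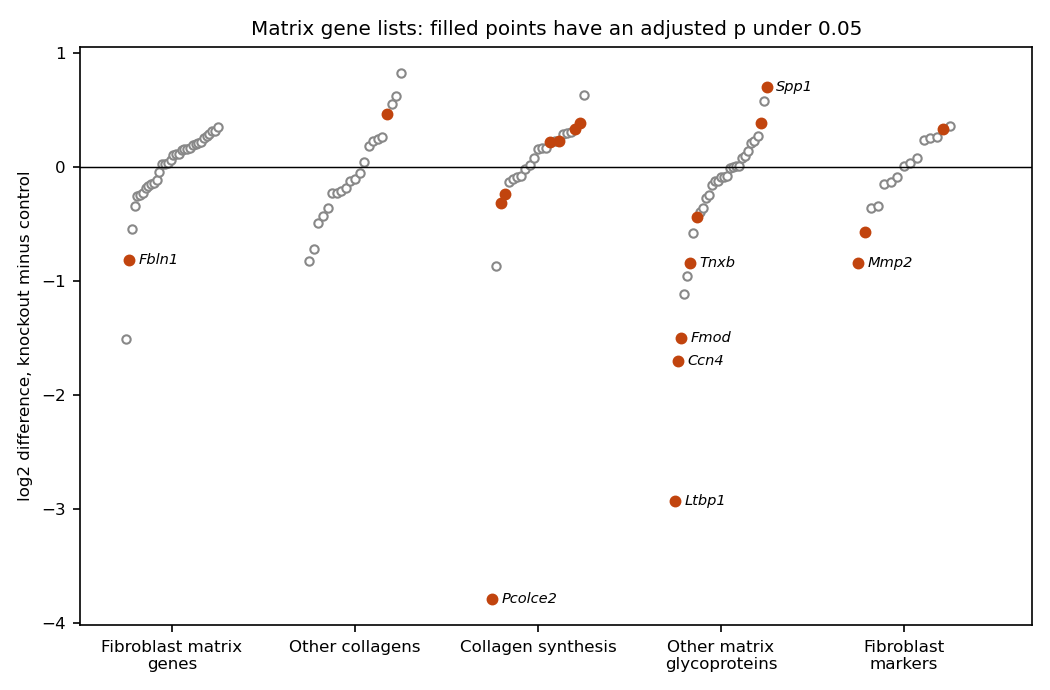
Log2 difference in knockout against control tumors (10 against 5) for the members and 4 other lists, 1 point per gene sorted within its list, filled where the limma adjusted p is under 0.05. *Fbln1* is the filled point among the members, and *Pcolce2* (-3.79) and *Ltbp1* (-2.93) lie lowest.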

How the data were processed

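RNA of 15 tumors was sequenced, 5 per group. Per the labels and the study's methods, the authors used TopHat2 for alignment to mm10, HTSeq for counts per gene and DESeq for size factors, by which counts were divided. The deposited values are this signal, normalized counts rounded to 0.1. Versions, annotation and strand setting are not given in the sources used here. Replicates are separate tumors, with 1 line per group, and knockout against control pooled the tumors of both knockout lines. Each p-value sets a difference against the spread between tumors and does not speak for other lines.

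limma 3.58.1 (R 4.3.3) with trend was fitted to log2(normalized count + 1) of the 18250 genes not at 0 in every tumor, with Benjamini-Hochberg adjustment over these and a threshold of 0.05. Knockout against control used 2 groups, and the clone comparisons used 3. The scripts were tested on simulated data. The simulation took its spread from the control tumors, so it did not hold the wide spread of the members in clone 4. Whole reads (100.00% of low values within 0.1 step) were recovered for 13 tumors. In tumors 8 and 14 the step was too close to 1 to be told from rounding, so edgeR 4.0.16 and DESeq2 1.42.0, run as alternatives, used 13 tumors. Positions and exon lengths come from GENCODE, and promoters from RefSeq, both on GRCm38.

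The members and lists were chosen with earlier results of these data known. Every tumor's value is given for members that passed in knockout against control or between clones and for the 3 highest per kb. Genes of other lists are named if they passed in knockout against control with a mean of at least 10, up to 4 per direction and list, and *Pbrm1* was the check of the labels. Members given in every tumor outside this rule are marked. No column lacked a tumor. The other assays of the study were not analysed here.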

Additional observations from a re-analysis of the deposited data

Results flagged for a closer look

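Of 102 groups of 5 tumors (34 members in 3 groups), 9 held a tumor far from the other 4 by Dixon's test, where chance gives about 1 in 20 (5.1 of 102). The test used normalized counts without logs, on which high values stand out more than low ones, and each flag was high. The chance figure takes normal values and independent members, which genes of the same tumor need not be, so the counts were not compared. In clone 4, tumor 10 stood high for 5 genes. Its normalized count was 2540.9 for *Dcn* (78.1 to 653.1 in the others), 10910.1 for *Lox* (3973.0 to 5831.9), 168.2 for *Ogn* (2.9 to 47.7), 5032.9 for *Acta2* (922.7 to 1795.5) and 2542.1 for *Tagln* (409.8 to 856.4). In control, tumor 3 stood high for *Col5a2* at 8297.6 (5351.6 to 6109.2) and *Postn* at 9771.1 (5214.7 to 6509.1). In clone 18, tumor 12 stood high for *Mfap5* at 1250.1 (541.9 to 717.7) and tumor 13 for *Eln* at 871.8 (113.3 to 200.6).

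Among the other matrix glycoproteins, 3 of 31 (9.68%) differed between the clones in the test of clone 18 against clone 4, against 4.62% of all genes. The log2 difference was 0.61 for *Efemp1* (fibulin-3, SE 0.12, limma adjusted p = 0.00607), 0.37 for *Ccn5* (SE 0.08, limma adjusted p = 0.0112) and 0.81 for *Tnxb* (SE 0.18, limma adjusted p = 0.0117). On the recovered reads DESeq2 called the same 3, and edgeR did not call *Tnxb*. *Efemp1* averaged 7649.7 in control, 7499 in clone 4 and 11529 in clone 18, and rose in clone 18 against control by 0.57. *Efemp1* was named after its values were seen.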

How the results depend on the processing

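*Fbln1* stayed lower with an adjusted p under 0.05 in each of the 24 alternatives of each comparison with control, at -0.87 to -0.74 in knockout tumors without 1 tumor. Leaving out 1 tumor gave 1 to 3 members called in knockout against control, 1 to 3 in clone 4, 1 to 2 in clone 18 and 0 to 4 between clones (1, 2, 2 and 0 with all tumors). The upper ends of 3, 3 and 4 members came without tumor 10. Over all genes the same fits called 3210 to 4176, 2404 to 3329, 3792 to 4616 and 632 to 896 genes in the same order, of 18243 to 18250 tested. In clone 4, 1 member was called with limma without trend, edgeR, DESeq2 or limma on the same 13 tumors, and in clone 18 1 with these and with upper quartile scaling. Without tumors 6 and 10, a setting chosen like limma on 13 tumors after seeing the data, 3 members were called in knockout against control, 5 in clone 18 (*Postn* and *Thbs2* higher) and 1 between clones. Over all genes 3945, 4431 and 507 of 18241 passed in these comparisons. Genes called between clones were 844, against 498 with edgeR, 532 with limma on 13 tumors, 507 without tumors 6 and 10 and 977 with DESeq2 on 13 tumors; the cause was not tested.

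Signs of members that did not pass turned with the setting. In knockout against control, edgeR and DESeq2 gave 0.043 and 0.035 for *Col5a1*, 0.058 and 0.050 for *Col8a1*, 0.036 and 0.028 for *Sparc*, 0.041 and 0.036 for *Lum*, 0.077 and 0.068 for *Tnc*, 0.15 and 0.14 for *Mfap5*, and -0.17 and -0.17 for *Eln*; the cause was not tested. Without tumors 6 and 10 the difference was 0.24 for *Lum*, -0.00078 for *Fbn1* and 0.038 for *Mfap5*. Leaving out 1 tumor gave -0.022 to 0.32 for *Col1a2*, -0.0028 to 0.38 for *Col3a1*, -0.31 to 0.010 for *Col8a1*, -0.028 to 0.15 for *Col12a1*, -0.11 to 0.038 for *Sparc*, -0.054 to 0.50 for *Dcn*, -0.43 to 0.20 for *Lum*, -0.15 to 0.16 for *Fbn1*, -0.043 to 0.14 for *Fbln2*, -0.093 to 0.28 for *Thbs2*, -0.23 to 0.13 for *Mfap5* and -0.22 to 0.72 for *Eln*. With either edgeR or DESeq2, 26 of 34 members stood above 0 in knockout against control, and 24 of 34 in clone 4, where limma had 14 on the same 13 tumors and 9 on all 15. The lowest value of any member was that of *Ogn* in tumor 6 (2.9), which rests on very few reads. That tumor had 43616344 reads on genes, against a median of 40197758 over the 13 tumors. No paired analysis was possible because the labels give no replicate numbers shared between groups.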
